A study of Mus musculus with 20 samples.

Results

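Chromatin-associated RNA was compared between Mettl3-KO and WT mouse embryonic stem cells (ESCs), each represented by 1 ChrRNA-seq library. The comparison covers the 5240 genes that reached at least 1 RPKM (reads per kilobase of gene, scaled to mapped reads) in either library, of the 19804 genes listed in at least 1 of them. These are 4485 protein-coding genes, 529 noncoding genes and 226 genes without a RefSeq biotype. Both libraries came from C57BL/6 ESCs, labelled Mettl3-KO or WT, and differ in no other label. The study also made ATAC-seq and m6A libraries and repeated all assays in cardiomyocyte cultures (CM) grown from these cells, and those are used here only beside the ESC values. The labels do not say how the gene was deleted, whether the KO line is 1 clone, or how many cultures went into each library. With 1 library a group there is no replicate check and no test: intervals cover counting error on estimated reads only, PCR copies included, and each ratio compares 2 libraries.

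METTL3 is the methyltransferase that deposits N6-methyladenosine (m6A) on RNA polymerase II transcripts while they are being made. RNA held on chromatin is rich in transcripts still being synthesised or spliced, in long noncoding RNAs that act in the nucleus, and in small nuclear and nucleolar RNAs, which guide splicing and the modification of ribosomal RNA. In mouse ESCs m6A is known to shorten the life of many pluripotency and chromatin-associated transcripts.

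The KO library listed 18557 genes at about 28100000 estimated reads, and the WT library 18428 genes at about 28000000. Of 15 ESC marker genes 14 passed 1 RPKM, and no endoderm, mesoderm or cardiac marker did. Of the other marker lists, Fn1 stood at 6.04 RPKM in KO and 6.01 RPKM in WT, Tfap2c, a trophoblast and germ cell factor, at 1.65 and 0.720, and the neural genes Olig2 at 1.31 and 2.61 and Stmn2 at 3.00 and 4.36. Mettl3 had 1.28 RPKM in KO and 1.73 RPKM in WT cells (ratio 0.742, 95% interval 0.660 to 0.835). Its body overlaps Tox4 and the deleted part is unknown, so this value does not check the label.

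Each file holds plus-strand genes first and minus-strand genes after them, and low genes were listed differently in the 2 blocks. Among genes whose RPKM came out as whole reads (within 0.05 of a whole number) from 1 to 20, only 9 of 344 plus-strand genes in KO and 5 of 322 in WT lay under 10 reads. On the minus strand the same count was 1444 of 1806 in KO and 1437 of 1765 in WT. Of all values in this range 53.7% in KO and 54.6% in WT came out whole. An unlisted plus-strand gene can therefore carry up to 9 reads, and an unlisted minus-strand gene was taken as a count of 0, which allows up to 3 reads. No fold is given against an unlisted gene. For most counts below, the genes listed in both libraries are given beside all genes.

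**Figure D1:**
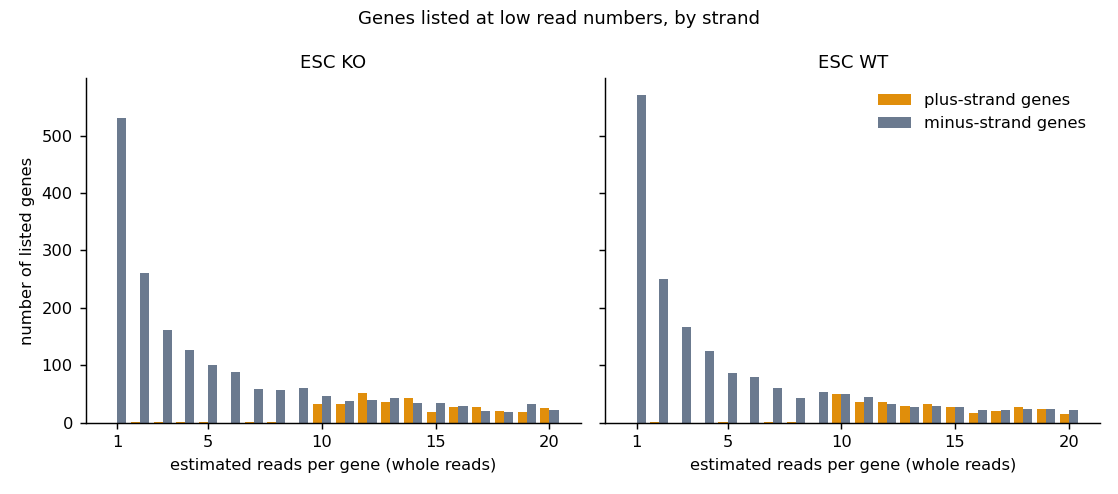
Number of listed genes (vertical axis) at each whole number of estimated reads from 1 to 20 (horizontal axis), for the ESC KO library (left) and the ESC WT library (right), with plus-strand genes in orange and minus-strand genes in grey. In both libraries nearly all plus-strand genes stand at 10 reads or more, while minus-strand genes are most numerous at 1 read, with 531 in KO and 571 in WT.

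Protein-coding genes differed little between the libraries. Their median log2 ratio of KO to WT, computed on RPKM + 1, was -0.10 (quartiles -0.21 and 0.01), and 4388 of 4485 lay within 1.5-fold on this scale. The ratio was negative in 3273 genes and positive in 1212. At least 2-fold higher in KO were 6 protein-coding genes (0.134%) and at least 2-fold lower 6 (0.134%). Of these, 5 and 2 were listed in both libraries (0.112% and 0.0446% of 4480). Noncoding genes were more scattered: their median was 0.09 (quartiles -0.25 and 0.50), with 54 of 529 at least 2-fold higher (10.2%) and 25 lower (4.73%). Among the 476 noncoding genes listed in both libraries the same counts were 24 (5.04%) and 2 (0.42%). Genes without a biotype had 18 higher (7.96%) and 3 lower (1.33%), of which 11 (5.07%) and 1 (0.461%) were listed in both libraries. With the 3 classes pooled (5240 genes), 1.49% passed the threshold upward and 0.649% downward, against 0.773% and 0.0967% of genes listed in both. When the KO library was scaled so that the median log2 ratio of protein-coding genes of at least 1 RPKM in both libraries was 0, which added 0.12 to every log2 ratio before the pseudocount, protein-coding counts were 10 higher and 5 lower and noncoding counts 68 and 25. When each library was instead rescaled to the same total, they were 12 and 65, and 78 and 69. The values below are on the deposited scale, and a group is read against the protein-coding median of -0.10.

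Among protein-coding genes with the highest ratios, both Lefty genes led. Lefty2 stood at 4.98 RPKM in KO and 0.882 RPKM in WT cells, and Lefty1 at 3.45 and 0.836 RPKM. The pair encode secreted inhibitors of NODAL and lie on chromosome 1, and no RefSeq promoter is given for either here. Nodal itself was lower, at 2.01 RPKM in KO and 2.71 RPKM in WT, and so was its co-receptor Tdgf1, at 22.1 and 30.2 RPKM. Of 11 NODAL pathway genes in the filter, 3 had a positive ratio and 2 passed 2-fold.

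The remaining high protein-coding genes included several with short or repeated sequence. The histone genes Hist1h2ah (5.45 RPKM in KO, 1.94 RPKM in WT), Hist1h2an (4.44 and 1.82 RPKM) and Hist1h4a (8.72 and 4.91 RPKM) were among the 15 highest, and Hist2h3b was listed in KO alone, with 14 reads. Of 53 histone genes in the filter 35 were positive (median 0.14). Hist2h2ab was listed in WT alone, with 14 reads, and both 1-library histone genes lie on the plus strand. Near-identical histone copies can exchange reads, so a single copy is uncertain.

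Pnck, a calcium/calmodulin-dependent kinase gene, stood at 1.69 RPKM in KO and 0.295 RPKM in WT. Pnma5, a gene of the paraneoplastic antigen family on the X chromosome, stood at 1.28 and 0.343 RPKM. Ulk1, which starts autophagy, had 5.95 RPKM in KO and 2.48 RPKM in WT. Of 13 autophagy genes in the filter 10 had a negative ratio (median -0.14), a share near that of all protein-coding genes (3273 of 4485, median -0.10). At a filter of 3 RPKM the autophagy median was 0.43. Fut9, the fucosyltransferase that makes the SSEA-1 surface antigen of ESCs, had 3.35 RPKM in KO and 1.65 RPKM in WT (ratio 2.03, 1.98 to 2.08), and carried 26 listed m6A positions in KO against 7 in WT. Grcc10 had 146 RPKM in KO and 61.6 RPKM in WT, and in CM 80.4 RPKM in KO and 37.6 RPKM in WT.

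Kpna1, an importin gene, stood at 16.3 RPKM in KO and 8.25 RPKM in WT ESCs. In CM the order was the opposite, with 14.2 RPKM in KO and 20.4 RPKM in WT. Lars2, a mitochondrial leucyl-tRNA synthetase gene chosen after its values were seen, had 65.3 RPKM in KO and 46.0 RPKM in WT ESCs, and 37.5 and 73.9 RPKM in CM. The abundant noncoding genes Gm42418, Mir6236 and n-R5s193, also chosen after the fact, ran the same way. Gm42418 had 36766 RPKM in KO and 29034 RPKM in WT ESCs, against 30700 and 45842 RPKM in CM. Mir6236 had 19053 RPKM in KO and 13728 RPKM in WT ESCs, against 10428 and 19686 RPKM in CM. In all 5 genes the CM WT library was the highest and the ESC KO library stood above the ESC WT library. What links them was not tested.

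**Figure D2:**
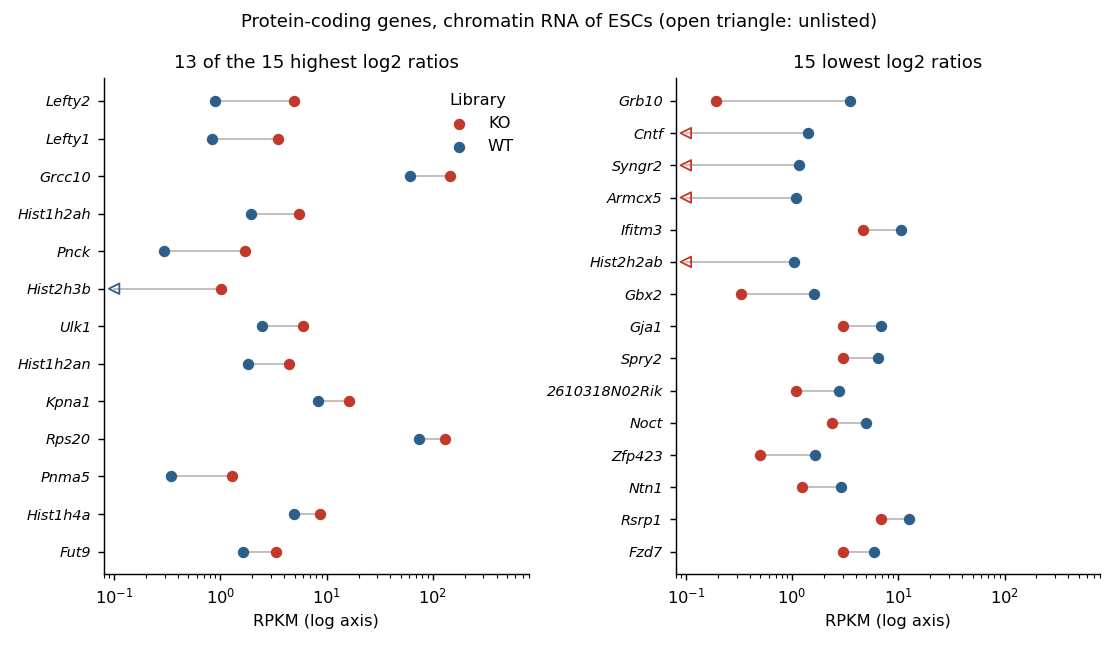
RPKM (log axis) in the KO (red) and WT (blue) ESC libraries for 13 of the 15 protein-coding genes with the highest log2 ratio and the 15 with the lowest, 1 row per gene in order of the ratio, with open triangles for unlisted genes. Most pairs lie within a few fold, and Grb10 has the widest gap among genes listed in both libraries, 0.194 RPKM in KO and 3.55 RPKM in WT.

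Grb10 was the lowest protein-coding gene. It encodes an imprinted adaptor protein that dampens insulin and growth factor signalling. It stood at 0.194 RPKM in KO and 3.55 RPKM in WT ESCs, about 583 against 10613 estimated reads (ratio 0.0547, 0.0502 to 0.0595). In CM it stood at 0.380 RPKM in KO and 7.05 RPKM in WT. The WT m6A list held 5 positions in Grb10 and the KO list none. Its 2 promoter windows in RefSeq (GRCm38.p6, the assembly behind mm10) are shown because the lower RNA level can be set beside accessibility at each; capitals mark CG dinucleotides, the sites of DNA methylation, counted the same on both strands, and each run reads 5′ to 3′ along the gene.
Grb10 upstream window, chr11:12037371-12037670, minus strand: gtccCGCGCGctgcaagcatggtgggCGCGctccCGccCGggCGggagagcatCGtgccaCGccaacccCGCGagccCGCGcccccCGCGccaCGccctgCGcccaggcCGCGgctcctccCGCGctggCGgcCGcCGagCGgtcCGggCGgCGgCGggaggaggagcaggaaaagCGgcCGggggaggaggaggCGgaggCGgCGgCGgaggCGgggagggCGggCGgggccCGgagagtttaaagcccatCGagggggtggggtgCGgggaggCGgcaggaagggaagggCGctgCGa
Grb10 downstream window, chr11:12027922-12028221, minus strand: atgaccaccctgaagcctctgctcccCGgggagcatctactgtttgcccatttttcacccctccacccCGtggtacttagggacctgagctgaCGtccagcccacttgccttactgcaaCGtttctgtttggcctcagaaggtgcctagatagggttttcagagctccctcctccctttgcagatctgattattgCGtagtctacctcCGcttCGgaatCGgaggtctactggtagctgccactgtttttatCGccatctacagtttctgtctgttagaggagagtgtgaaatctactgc
The upstream window holds 45 CG and the downstream window 9. At least 1 CG was present in 94.6% of all 32851 promoter windows of this length, whose median was 7, and 1.93% held 45 or more. An ATAC-seq peak overlapped the upstream window in 3 of 3 KO and 3 of 3 WT libraries, with the authors' −log10 q between 10.6 and 13.3 in KO and between 7.29 and 16.2 in WT. No peak overlapped the downstream window in any of the 6. The gene body overlaps LOC102631979. Whether the KO and WT lines differ in imprinting was not tested.

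Cntf, Syngr2 and Armcx5 were listed in both WT libraries and in neither KO library. In WT ESCs they stood at 1.41, 1.17 and 1.10 RPKM, about 83, 152 and 142 reads, and in WT CM at 1.10, 0.994 and 1.07 RPKM. Cntf, a neurotrophic cytokine gene, overlaps Gm44505, and Armcx5 overlaps Gprasp1, so that reads can pass to another gene. Syngr2, which encodes a vesicle membrane protein, overlaps no gene in the RefSeq table. Over all genes of at least 0.5 RPKM in any of the 4 libraries, 11 were listed in both WT libraries and no KO library, and 13 in both KO libraries and no WT library, of which 3 and 0 were protein-coding.

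The other low genes described here were listed in both libraries, and several act in signalling. Ifitm3, a membrane protein that restricts viral entry, had 4.69 RPKM in KO and 10.7 RPKM in WT. Gbx2, a homeobox gene of pluripotent cells, had 0.331 and 1.60 RPKM. Gja1, which encodes connexin 43, had 3.04 and 6.87 RPKM. Spry2, a feedback inhibitor of FGF signalling, had 3.00 and 6.47 RPKM, and of 12 FGF and ERK feedback genes in the filter 11 were negative (median -0.34). Among these were Dusp6 at 1.26 RPKM in KO and 2.73 RPKM in WT and Spred1 at 1.90 and 3.67 RPKM, while Fgf4 itself stood at 10.42 and 10.2 RPKM. Fzd7, a WNT receptor gene, had 3.00 RPKM in KO and 5.88 RPKM in WT, and the guidance cue gene Ntn1 had 1.25 and 2.91 RPKM. Zfp423 had 0.502 RPKM in KO and 1.64 RPKM in WT, and Noct, a circadian NADP(H) phosphatase, 2.40 and 4.998 RPKM. In CM some of these genes had the opposite order: Gja1 stood at 8.07 RPKM in KO and 7.40 RPKM in WT, Ntn1 at 0.987 and 0.746 RPKM and Zfp423 at 1.00 and 0.710 RPKM. Most protein-coding genes were higher in KO in CM, 3490 of the 4480 listed in both ESC libraries (median log2 ratio 0.12). The CM log2 ratio of Gja1, 0.11, lay near that median.

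Most other gene lists had medians near that of all protein-coding genes. Glycolysis genes lay below it, with 15 of 16 negative and a median of -0.30, but -0.13 over its minus-strand members alone. The glucose transporter Slc2a1 had 3.13 RPKM in KO and 5.68 RPKM in WT and the enolase Eno1 4.17 and 6.95 RPKM. Mitochondrial ribosomal protein genes had 47 of 52 negative (median -0.18) and respiratory chain genes 49 of 60 (median -0.12). Genes of the integrated stress response had 8 of 10 negative (median -0.26, but -0.11 at a filter of 3 RPKM and -0.14 without overlapping genes), with Hspa5 at 25.5 RPKM in KO and 37.5 RPKM in WT and Asns, the asparagine synthetase, at 5.89 and 3.72 RPKM. Cholesterol synthesis genes had 7 of 11 positive (median 0.13), among them the sterol oxidase Msmo1 at 2.10 RPKM in KO and 1.63 RPKM in WT. Cell cycle genes had 29 of 39 negative (median -0.18), with Mki67 at 11.4 RPKM in KO and 6.73 RPKM in WT and Ccne1 at 1.98 and 4.11 RPKM. Polycomb and trithorax genes had 15 of 27 negative (median -0.03), the lowest being Kdm2b, which targets Polycomb to CpG islands, at 0.579 RPKM in KO and 1.53 RPKM in WT. Zinc finger genes named Zfp had 102 of 132 negative (median -0.13), and splicing factor genes 27 of 40 (median -0.09). No member of these lists passed 2-fold on RPKM + 1, although the ratio of the RPKM values themselves did in some, at 0.378 for Kdm2b and 0.482 for Ccne1.

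Ratios were slightly higher in longer protein-coding genes. In 4 groups of equal size by length, from shortest to longest, the medians were -0.14, -0.11, -0.08 and -0.08 (Spearman correlation over 4485 genes 0.10, given as a description since all points share the same 2 libraries). At a filter of 3 RPKM this correlation was -0.02. The larger contrast lay below 200 bp. Of 294 genes under 200 bp listed in both libraries, all noncoding, 203 were positive (median 0.26), against 51 of 101 between 200 bp and 1 kb (median 0.01). From 1 to 10 kb 259 of 1103 were positive (median -0.14) and from 10 to 100 kb 866 of 3101 (median -0.09). Above 100 kb 101 of 357 were (median -0.11). Among noncoding genes alone, 18 of 45 between 200 bp and 1 kb were positive (median -0.14). From 1 to 10 kb 30 of 80 noncoding genes were (median -0.12), and from 10 to 100 kb 18 of 55 (median -0.16). Within noncoding genes length was not separated from biotype, and short classes differed. Of genes listed in both, 114 of 151 small nuclear RNAs (median 0.36), 12 of 12 rRNAs and 31 of 36 pseudogenes under 200 bp were positive. Of microRNAs 20 of 47 were positive (median -0.07), and of small nucleolar RNAs 24 of 45 (median 0.05).

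Many small nucleolar RNAs (snoRNAs) lie inside introns of other genes, and the deposited values count whole genes. Of 29 cytosolic ribosomal protein genes with a snoRNA gene inside, 22 were positive (median 0.13), while of 48 with no small RNA gene inside 19 were (median -0.05). A ratio of at least 0.3 was seen in 8 of the 29 and in 0 of the 48. Rps20 had 131 RPKM in KO and 73.5 RPKM in WT and Rpl23 277 and 179 RPKM, each with 1 snoRNA gene inside. Rps21 and Rpl10a, the lowest ribosomal protein genes, stood at 5.73 and 6.97 RPKM in KO and at 8.49 and 9.70 RPKM in WT, and neither holds a snoRNA. Among all protein-coding genes under 10 kb, ribosomal ones included, the median was 0.07 in 55 with a snoRNA and -0.15 in 1006 with no small RNA gene. Outside the ribosomal protein genes the split was small at any length. There 58 of 154 genes with a snoRNA were positive (median -0.05), against 1024 of 3977 with no small RNA gene (median -0.10). A log2 ratio of at least 0.3 was seen in 3 of the 154 and 70 of the 3977. The levels of the groups differ as well: the median RPKM of ribosomal protein genes was 221 in KO and 179 in WT with a snoRNA and 5.94 and 5.84 with no small RNA gene inside. Their part in the difference was not tested.

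**Figure D3:**
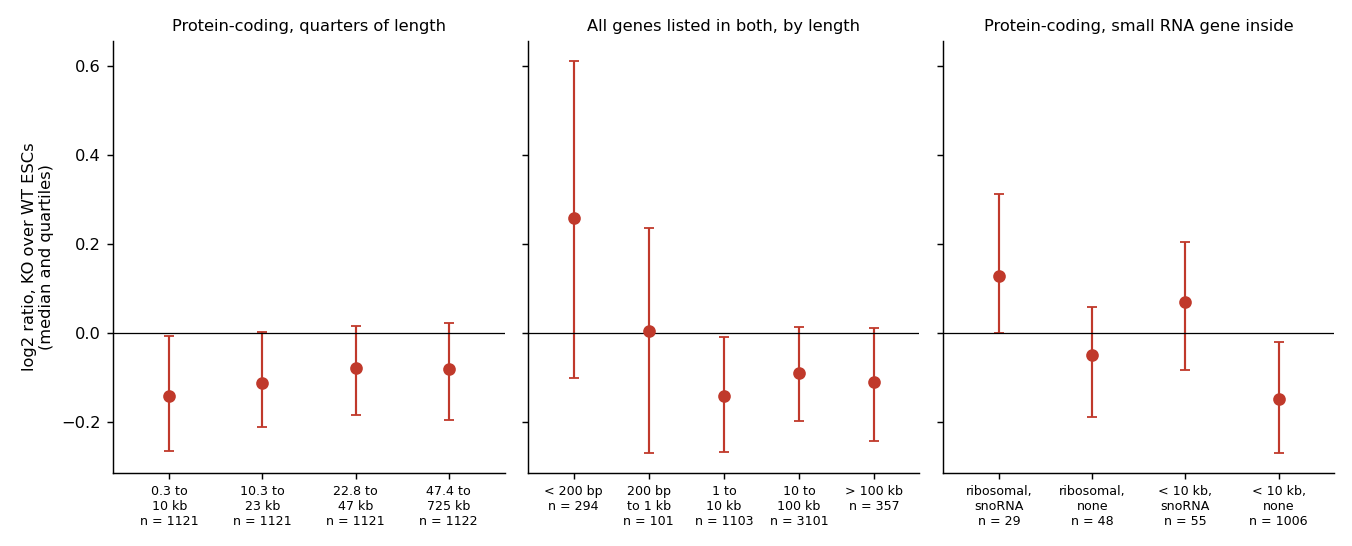
Median log2 ratio of KO to WT ESCs (points) with quartiles (bars) for protein-coding genes in 4 groups by gene length (left), for all genes listed in both libraries in fixed length bins (middle) and for protein-coding genes with or without a snoRNA gene inside (right). Genes under 200 bp have a median of 0.26, all bins above 1 kb are below 0, and both groups with a snoRNA inside lie above their counterparts. The groups under 10 kb include ribosomal protein genes.

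Long noncoding RNAs were split by snoRNA content, as the ribosomal protein genes were. Of 122 lncRNAs, all listed in both libraries, 73 were negative (median -0.12), but 19 of the 25 with a snoRNA inside were positive (median 0.20) and 30 of the 97 with none (median -0.16). The snoRNA host Gas5 had 3225 RPKM in KO and 2395 RPKM in WT, and Snhg6 530 and 325 RPKM. Malat1, the abundant nuclear speckle RNA, holds no snoRNA and had 634 RPKM in KO and 425 RPKM in WT (ratio 1.49, 1.48 to 1.504). The highest lncRNA ratio was that of Kcnq1ot1, an imprinted RNA that silences its neighbours, at 8.43 RPKM in KO and 3.84 RPKM in WT, opposite in direction to Grb10 and the Dlk1-Meg3 genes. Neat1, the paraspeckle RNA, had 8.88 RPKM in KO and 4.32 RPKM in WT, and Lncenc1, an ESC lncRNA, 4.72 and 2.38 RPKM. At the other end, 1700030C10Rik had 2.47 and 5.86 RPKM, Mir17hg 21.9 and 31.7 RPKM and Pvt1, the neighbour of Myc, 1.41 and 2.57 RPKM. Pseudogenes divided by length instead: those under 200 bp and listed in both were positive in 31 of 36 (median 0.62), those of 200 bp or more in 10 of 42 (median -0.27).

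Small nuclear RNA genes were the largest short class that stood apart. Of 151 listed in both libraries 114 were positive, with a median of 0.36, and the counting interval of the ratio lay above 1 in 49 and below 1 in 6. Their summed level was 121506 RPKM in KO and 103636 RPKM in WT. The pattern held for abundant and for rare copies: the median was 0.28 for 15 genes of at least 1000 RPKM on average, 0.42 for 63 between 10 and 1000 RPKM and 0.35 for 73 below 10 RPKM. Rnu5g, a U5 gene, had 4495 RPKM in KO and 3557 RPKM in WT. Rnu11 and Rnu12, of the minor spliceosome, had 4677 and 698 RPKM in KO and 3845 and 468 RPKM in WT. Among the U1 genes Rnu1b1 had 307 RPKM in KO and 216 RPKM in WT, and Rnu1b2 501 and 444 RPKM. The exceptions included Rn7sk, the 7SK RNA that holds P-TEFb inactive, at 1237 RPKM in KO and 1585 RPKM in WT. The class holds unlike RNAs, several of them in many gene copies, and 74 of its genes are 107 bp long (57 positive, median 0.37). Sequences of the copies were not compared here, and reads that match several copies may have been split among them. Gm25587, the highest noncoding gene listed in both libraries, had 116 RPKM in KO and 31.0 RPKM in WT, 539 against 144 reads (ratio 3.73, 3.10 to 4.51).

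All 12 genes of RefSeq biotype rRNA listed in both libraries, copies of the 5S ribosomal RNA that RNA polymerase III transcribes, were positive (median 0.83). Together they had 1166 RPKM in KO and 668 RPKM in WT. With the copies of other biotype, 32 of 33 genes named n-R5s were positive. Reads that match several copies may have been split among them, so these counts are not counts of independent results. n-R5s2 had 229 RPKM in KO and 79.9 RPKM in WT and n-R5s115 had 122 and 34.5 RPKM. Other RNA polymerase III products did not all follow. Rmrp, the RNA of RNase MRP, stood at 8307 RPKM in KO and 6001 RPKM in WT, and Rpph1, the RNA of RNase P, at 135 and 123 RPKM. The Y RNA genes Rny1 and Rny3 were lower, at 280 and 573 RPKM in KO and 327 and 746 RPKM in WT, as were the signal recognition particle RNA genes Rn7s1 and Rn7s2, at 84.1 and 52.3 RPKM in KO and 93.4 and 67.4 RPKM in WT. Outside the RNA polymerase III products, Terc, the telomerase RNA, stood at 127 RPKM in KO and 119 RPKM in WT (ratio 1.07, 0.990 to 1.15). The snoRNA class as a whole was balanced, with 24 of 45 positive (median 0.05), although its most abundant members were higher: Snord13 had 46308 RPKM in KO and 40353 RPKM in WT, and Snord118 36008 and 30428 RPKM. In CM, counts of copies and summed levels gave different pictures. Of the 151 small nuclear RNA genes, 72 were positive in CM (median -0.01), while their summed level was 68645 RPKM in KO and 49527 RPKM in WT. Of the 15 abundant ones 11 were positive (median 0.36). These CM values enter Rnu3a as 0, so the sums leave it out and it is not counted as positive. The CM libraries list its symbol under another gene, at 12946 RPKM in KO and 11145 RPKM in WT. In ESCs Rnu3a had 22407 RPKM in KO and 23471 RPKM in WT. Of the 12 rRNA genes 5 were positive in CM (median -0.12), with a sum of 1225 RPKM in KO and 1163 RPKM in WT. Of the 45 snoRNAs 30 were positive in CM (median 0.22). Protein-coding genes set another baseline in CM: of the 4480 listed in both ESC libraries, 3490 were positive there (median 0.12). Of the 24 noncoding genes at least 2-fold higher in KO ESCs and listed in both libraries, 8 were higher and 16 lower in KO CM.

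**Figure D4:**
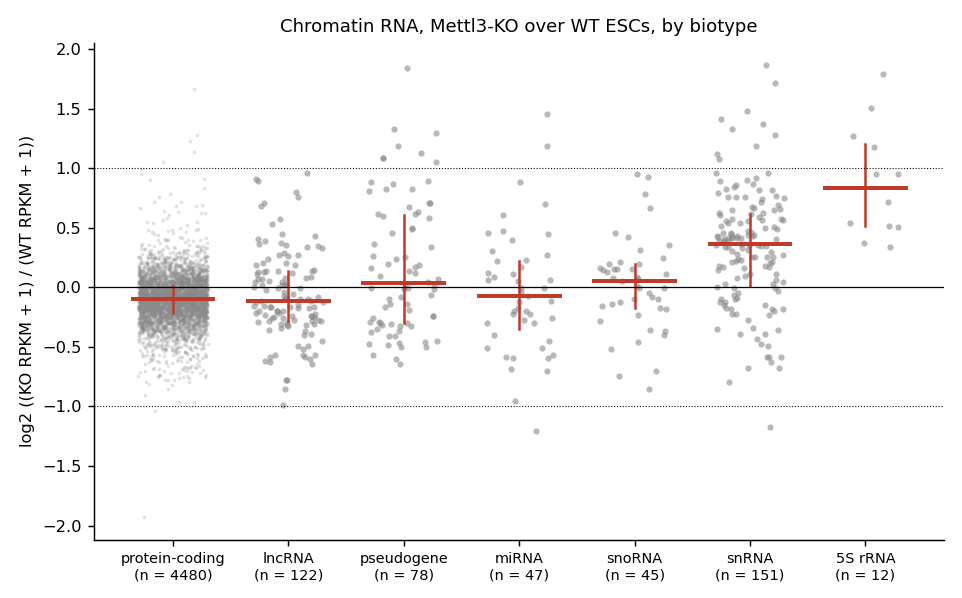
Log2 ratio of KO to WT (vertical axis, RPKM + 1) for each gene listed in both ESC libraries (grey points), by RefSeq biotype, with the median (red line) and quartiles (red bar); dotted lines mark 2-fold. The 12 rRNA and 151 snRNA genes lie mostly above 0, with medians of 0.83 and 0.36, and protein-coding genes and lncRNAs lie slightly below 0.

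MicroRNA genes split by locus. The values cover RNA over the hairpin held on chromatin and not the mature miRNA. Outside the Dlk1-Meg3 domain, 20 of 39 miRNA genes listed in both libraries were positive (median 0.06). The ESC-specific Mir290 to Mir295 cluster on chromosome 7 had 5052 reads in KO and 5704 reads in WT over 7 genes (ratio 0.882, 0.849 to 0.916), and in it Mir291a stood at 769 RPKM in KO and 948 RPKM in WT and Mir294 at 300 and 308 RPKM. The Mir106a to Mir363 cluster on the X chromosome had 172 reads in KO and 208 reads in WT (ratio 0.823, 0.669 to 1.01). The Mir322, Mir503 and Mir351 cluster, also on X, had 22 reads in KO and 6 reads in WT (ratio 3.65, 1.44 to 11.01), few reads for a ratio. Mature RefSeq sequences from these clusters are shown to give the targeting families involved, with the seed (bases 2 to 8) in capitals and U for T.
mmu-miR-291a-3p: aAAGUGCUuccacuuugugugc
mmu-miR-294-3p: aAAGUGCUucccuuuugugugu
mmu-miR-295-3p: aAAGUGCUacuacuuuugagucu
mmu-miR-20b-5p: cAAAGUGCucauagugcagguag
mmu-miR-106a-5p: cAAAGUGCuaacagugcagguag
mmu-miR-322-5p: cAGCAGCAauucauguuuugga
mmu-miR-503-5p: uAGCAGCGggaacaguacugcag
The miR-291a, miR-294 and miR-295 3p arms share the seed AAGUGCU, carried by 5 of 1679 mature miRNAs in the table. The miR-20b and miR-106a 5p arms share AAAGUGC, carried by 7. The miR-322 seed is carried by 10 and the miR-503 seed by 1. Both of these seeds begin with AGCAGC and differ only in base 8.

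The Dlk1-Meg3 domain on chromosome 12 (chr12:109452485-109749458) was lower throughout. This imprinted domain produces, from the maternal chromosome, a chain of noncoding transcripts that hosts many snoRNAs and miRNAs. All 18 of its genes listed in both libraries were negative. They lie along 1 chain of transcripts and are not independent. The other 13 of its 31 genes in the filter were listed in WT alone. With KO entered as 0, their negative sign was fixed in advance, and they lower the median over all 31 (-0.77). All 31 lie on the plus strand. Meg3 stood at 3.34 RPKM in KO and 6.45 RPKM in WT (ratio 0.518, 0.495 to 0.542), Rian at 9.91 and 15.8 RPKM, and Mirg at 1.91 and 3.97 RPKM (ratio 0.480, 0.440 to 0.523). The 7 snoRNAs listed in both libraries were negative (median -0.37), from AF357428 at 1664 RPKM in KO and 1835 RPKM in WT to Gm25856 at 152 and 248 RPKM. Of 20 miRNA genes, 8 were listed in both libraries and all were negative (median -0.55), and 12 were listed in WT alone with 10 to 26 reads. With up to 9 reads possible in KO, those 12 say less than the 8. Mir431 had 23 reads in KO and 56 reads in WT (ratio 0.409, 0.240 to 0.675), and Mir300 59 and 90 reads (ratio 0.653, 0.462 to 0.916). The intervals of the other domain miRNA genes listed in both libraries included 1, as for Mir127 (0.479 to 1.72). In CM, 26 of the 31 genes were lower in KO and 5 higher. Mir665, Mir3070b and Mir654 were unlisted in CM KO and entered as 0, so their sign was fixed in advance. Of the 18 genes listed in both ESC libraries, 17 were lower in CM KO and 1 higher. Meg3 stood in CM at 10.0 RPKM in KO and 18.3 RPKM in WT. The 5 higher among the 31 were Gm22981, Mir379, Mir1197, Mir376a (6.41 RPKM in KO and 6.00 RPKM in WT) and Mir376b (9.398 and 6.22 RPKM). Mature sequences are shown for Mir431 and Mir495, which were listed in both libraries, and for Mir376a, Mir376b and Mir136, listed in WT alone with 19, 26 and 19 reads, again with seeds in capitals.
mmu-miR-431-5p: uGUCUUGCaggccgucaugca
mmu-miR-495-3p: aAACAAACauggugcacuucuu
mmu-miR-376a-3p: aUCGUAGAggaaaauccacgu
mmu-miR-376b-3p: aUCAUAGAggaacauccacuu
mmu-miR-136-5p: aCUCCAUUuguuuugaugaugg
No pair of these 5 shares a seed. Each of the seeds UCGUAGA and UCAUAGA occurs in 1 mature miRNA of the table. The first RefSeq promoter window of Meg3 is shown because the whole chain runs downstream of it, with CG in capitals.
Meg3 window, chr12:109540746-109541045, plus strand: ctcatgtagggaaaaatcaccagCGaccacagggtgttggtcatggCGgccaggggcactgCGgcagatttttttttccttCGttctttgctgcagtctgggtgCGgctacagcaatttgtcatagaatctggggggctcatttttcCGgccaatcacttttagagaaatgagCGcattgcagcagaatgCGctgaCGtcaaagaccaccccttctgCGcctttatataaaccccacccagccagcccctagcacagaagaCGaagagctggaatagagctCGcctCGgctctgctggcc
It holds 13 CG, and 37.9% of all windows hold as many. No ATAC-seq peak overlapped it in 3 KO libraries, and a peak overlapped it in 1 of 3 WT libraries (the authors' −log10 q 1.83). The other Meg3 window had no peak in any library.

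**Figure D5:**
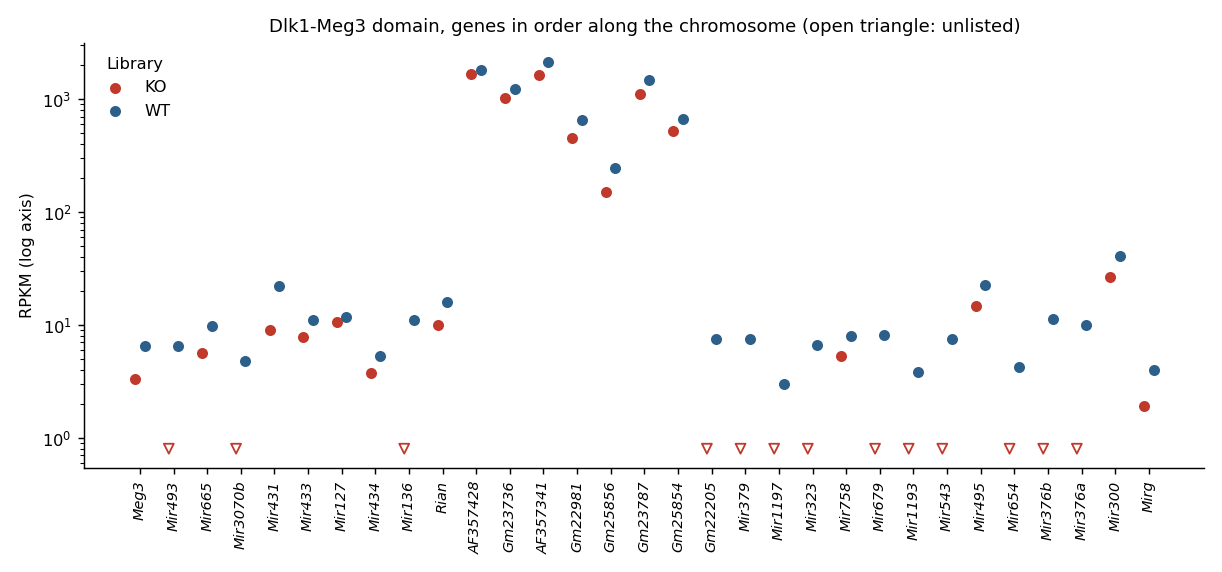
RPKM (log axis) in the KO (red) and WT (blue) ESC libraries for the 31 genes of the Dlk1-Meg3 domain in the filter, in their order along chromosome 12, with open triangles for genes unlisted in KO. All 18 genes listed in both libraries are lower in KO, and the 13 unlisted genes are 12 miRNAs and the snoRNA Gm22205.

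The m6A lists give positions without a strength. The KO list held 18076 positions in 5342 genes and the WT list 16983 in 5367. Protein-coding genes on both lists had a median log2 RNA ratio of -0.10 (2978 genes), those on neither -0.11 (958 genes), those on the KO list alone -0.06 (306 genes) and those on the WT list alone -0.16 (243 genes, of which 215 were negative). RNA level moved with these classes: median RPKM on the WT list alone was 1.28 in KO and 1.57 in WT, and on the KO list alone 1.54 and 1.66. Its part in the listing was not tested. Genes with at least 10 positions on the WT list had a median of -0.09 (265 genes).

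Accessibility at gene ends separated few of these genes. In 4258 of the 4485 protein-coding genes an ATAC-seq peak lay within 1 kb of a gene end in 3 of 3 KO and 3 of 3 WT libraries, with a median RNA log2 ratio of -0.10. Peaks in all 3 KO and no WT libraries were found at Cntf and Zfx, and peaks in no KO and all 3 WT libraries at Pogz, Tlcd1 and Tmem248. At RefSeq promoter windows, a choice made after seeing the data, 3599 genes had a peak in all 6 libraries, Lima1 had one in 0 KO and 3 WT libraries, and no gene had one in 3 KO and 0 WT libraries. Cntf had none there in either genotype.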

How the data were processed

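ChrRNA-seq of 1 KO and 1 WT ESC library was compared, with the m6A and ATAC-seq lists of the same cells set beside it. The authors deposited RPKM values per Ensembl gene without a header; no label states the annotation or the strand setting. Per the submitters' processing notes the build was mm10 and the tools included HISAT2, MACS2, cutadapt, Picard and Bowtie, with no roles given. The m6A lists as deposited hold gene identifiers and positions. The ATAC-seq peak lists, 3 libraries a group, hold the authors' −log10 q-value per peak.

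Symbols, biotypes and lengths were taken from RefSeq GRCm38.p6 by symbol or synonym (92.1% of KO and 92.1% of WT genes matched). Depth was worked out from steps of whole reads among low genes, and the intervals are 95% Clopper-Pearson. Log2 ratios used RPKM + 1, which understates changes of low genes, on genes of at least 1 RPKM in either library. An unlisted gene was entered as 0. Text names the 15 highest and 15 lowest protein-coding genes, the 12 highest and 12 lowest noncoding genes listed in both libraries, 5 listed in 1 library each way, Mettl3, and per list up to 2 each way with members past 2-fold, from which the examples were drawn. Some genes that the rule names are not reported here. The members and lists were chosen with earlier results of these data known. Python 3.11.15, pandas 2.3.3 and scipy 1.17.1 were used.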

Additional observations from a re-analysis of the deposited data

Results flagged for a closer look

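These 5 genes were at least 2-fold higher in KO than WT ESCs and at least 2-fold lower in KO than WT cardiomyocyte cultures, each cell type with 1 library a genotype. The difference was not tested. The log2 ratio in ESCs was 1.86 for Gm25587, with 116 RPKM in KO and 31.0 RPKM in WT ESCs and 29.9 and 75.2 RPKM in CM. For Gm24168 it was 1.33, with 18.3 RPKM in KO and 6.68 RPKM in WT ESCs and 7.20 and 16.5 RPKM in CM. For Gm25276 it was 1.296, with 10 reads in KO and 2 reads in WT ESCs. For Gm26561 it was 1.15, with 4.44 RPKM in KO and 1.45 RPKM in WT ESCs and 1.14 and 4.55 RPKM in CM. For Gm23677 it was 1.00, with 4.45 RPKM in KO and 1.72 RPKM in WT ESCs and 0.644 and 5.56 RPKM in CM.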

How the results depend on the processing

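With 1 library a genotype no library could be left out. No paired analysis was possible because each genotype has 1 ChrRNA-seq library in ESCs. The cause of each shift below was not tested. Protein-coding genes at least 2-fold higher, 6 as reported, were 14 with a pseudocount of 0.1, 10 with the KO library scaled to the protein-coding median, 12 with values rescaled to the same total and 3 on the minus strand alone. Those lower, 6 as reported, were 48 with a pseudocount of 0.1, 13 with 0.5, 2 at a filter of 3 RPKM, 2 among genes listed in both, 65 rescaled, 3 without overlapping genes and 3 on the minus strand. The protein-coding median of -0.10 was -0.28 rescaled. Noncoding genes higher, 54 as reported, were 24 listed in both, 3 without genes under 200 bp, 34 with unlisted plus-strand genes at 9 reads and 21 on the minus strand. Those lower, 25 as reported, were 2 listed in both, 69 rescaled, 14 without overlapping genes, 2 without genes under 200 bp, 6 with the limit of 9 reads and 3 on the minus strand. The noncoding median of 0.09 was 0.22 at 3 RPKM, 0.21 scaled, -0.16 rescaled and -0.14 without genes under 200 bp. The Spearman correlation with length was -0.021 at 3 RPKM.

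Class medians over all genes in the filter moved as follows. The snRNA median of 0.39 was 0.51 scaled. That of snoRNAs, 0.01, was 0.13 scaled, -0.10 without overlapping genes and 0.11 on the minus strand. That of rRNA, 0.95, was 1.05 with a pseudocount of 0.1, 0.83 listed in both, 1.06 scaled, 1.07 without overlapping genes, 0.72 at 9 reads and 0.72 on the minus strand. That of miRNA, -0.20, was -0.069 listed in both and turned to 0.088 on the minus strand, as did the miRNA family (0.088). No Dlk1-Meg3 gene of the filter lies on that strand. That of lncRNA, -0.12, turned to 0.044 at 3 RPKM and was -0.012 scaled. That of pseudogenes, 0.15, was 0.61 at 3 RPKM, 0.039 listed in both, 0.27 on the minus strand and turned to -0.0075 without overlapping genes. The imprinted list turned to 0.041 without overlapping genes, autophagy to 0.43 and Rik clones to 0.017 at 3 RPKM, and small Cajal body RNAs to 0.0020 scaled. Settings that only leave genes out cannot change the ratio of a named gene. Of 65 named genes, 53 moved by at least 0.1 (log2) with a pseudocount of 0.1. With the KO library scaled 29 did, and with unlisted plus-strand genes at 9 reads 11 did. A turn of sign was counted only for named genes past 2-fold, and 0 turned. The choices on unlisted plus-strand genes, the minus strand and promoter windows were made after seeing the data.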

Other observations

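The gene symbol Gm24826 is carried by 2 Ensembl genes. One was listed in the KO library alone, at 38.1 RPKM, and the other in the WT library alone, at 18.0 RPKM. Rnu3a is likewise carried by 2 genes: one was listed in the ESC libraries alone, at 22407 RPKM in KO and 23471 RPKM in WT, and the other in the CM libraries alone, at 12946 and 11145 RPKM. An unlisted gene of such a family is therefore no sign that its RNA is missing.

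Of 54 genes without protein-coding biotype that were listed in 1 ESC library and lie on the plus strand, 31 were listed in KO and 23 in WT. Where a read number could be computed, in 25 and 21 of them, both sets had a median of 14 reads. With 9 reads entered for the other library, 5 of those listed in KO and 2 of those listed in WT still passed 2-fold. Mir376b, at 26 reads in WT, was one of the 2. The other was the Gm24826 gene listed in WT, and the Gm24826 gene listed in KO was among the 5. This symbol therefore counts on both sides and is no sign of a difference.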
